A study of Mus musculus with 6 samples.

Results

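The vascular endothelial growth factor (VEGF) system was followed in cultured mouse brain cells with and without Edf1. The set holds 9 of the 22851 gene symbols in the deposited count table: the receptor genes Kdr, Flt1 and Flt4, the neuropilin genes Nrp1 and Nrp2, and the ligand genes Vegfa, Vegfb, Vegfc and Pgf. All 9 symbols were found. The set was chosen by a measured result of these libraries, the higher Kdr and lower Flt1 counts in the knockout. The values of the 9 genes are therefore given as a description, with no p-value printed and no claim built on them. Where a member is said to pass or miss a threshold, this too is only a description.

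Radial glial cells, the progenitors that line the ventricles, were taken from brains of C57BL/6J mice at postnatal day 0 to 3 and grown in medium with 10% serum. Serum was then left out for 6 days so that the cells would form multiciliated ependymal cells. One group came from wild-type (WT) mice and the other from Edf1 knockout (KO) mice made with CRISPR/Cas9, with 3 biological replicates each, per the series' design text. The labels give no litter, sex, number of animals per culture or deleted exon, so animals, litters and cultures cannot be told apart behind a replicate.

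VEGF ligands are secreted dimers that bind tyrosine kinase receptors on the cell surface. Kdr (VEGF receptor 2) carries most of the signal of Vegfa in endothelial cells. Flt1 (VEGF receptor 1) binds Vegfa tightly but signals weakly, and its soluble form acts as a decoy. Flt4 (VEGF receptor 3) is the receptor of Vegfc in lymphatic endothelium. Neuropilins are co-receptors shared by VEGFs and class 3 semaphorins. In the brain, astroglia and choroid plexus epithelium are known sources of Vegfa, and Kdr has also been described in neural progenitors.

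The libraries held 13071766 to 28087006 counts, with WT replicate 2 the smallest. In a principal component analysis the first component (60.7% of the variance) separated the genotypes, and the second (16.1%) set WT replicate 2 apart from the other WT libraries. Edf1 had 80.2 to 85.9 CPM (counts scaled to library size, with library sizes adjusted by the TMM method) in WT and 9.84 to 13.2 CPM in KO, so each library matched its label. Markers of the labelled cell type were present in both groups: the 18 multiciliated ependymal markers in the table summed to 3600 to 3803 CPM in WT and 2109 to 2286 CPM in KO. All 18 were lower in KO at an adjusted p under 0.05 in edgeR, against 14.2% of all tested genes.

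Kdr was the member with the widest difference upward. Its counts were 1059, 443 and 738 in WT replicates 1, 2 and 3 and 2089, 2295 and 3515 in KO replicates 1, 2 and 3. Scaled for depth, these were 39.9, 34.4 and 39.9 CPM in WT and 128, 128 and 124 CPM in KO. All 3 KO libraries lay above all 3 WT libraries, and the KO libraries lay close together. The means were 38.1 ± 3.16 CPM in WT and 126.9 ± 2.16 CPM in KO (SD, n = 3 each), a 3.33-fold higher level and a log2 fold change of 1.73 (SE 0.066). It was 1.67 without WT replicate 2.

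Flt1 went the other way. WT replicates 1, 2 and 3 had 319, 138 and 209 counts, and the KO replicates had 66, 63 and 109. In CPM these were 12.02, 10.7 and 11.3 in WT and 4.06, 3.51 and 3.86 in KO. Every KO library lay below every WT library, with no overlap. The mean fell from 11.3 ± 0.65 to 3.81 ± 0.28 CPM (SD, n = 3 each), so KO held 33.6% of the WT level. The log2 fold change was -1.58 (SE 0.13), and -1.62 without WT replicate 2. The table counts genes and not transcripts, so membrane-bound and soluble Flt1 transcripts cannot be told apart.

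The difference in the 2 receptors changed their balance within each library. The ratio of Kdr to Flt1, each per kilobase of annotated exon, was 4.96, 4.80 and 5.28 in WT replicates 1, 2 and 3. In KO replicates 1, 2 and 3 it was 47.3, 54.5 and 48.2. The means were 5.02 ± 0.24 and 50.01 ± 3.89 (SD, n = 3 each). With the length of the longest coding transcript in place of all exons, the means were 3.90 ± 0.19 and 38.9 ± 3.03. The ratio restates the differences that chose the set and adds no separate evidence.

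**Figure D1:**
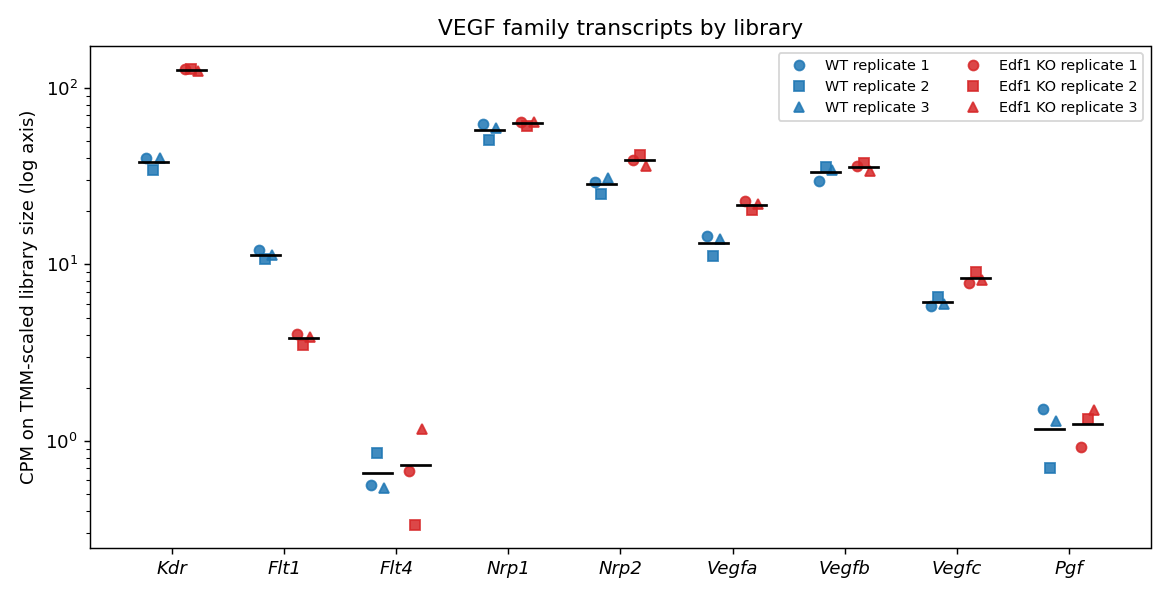
CPM on TMM-scaled library sizes (log axis) of the 9 VEGF family genes in each library. Blue points are WT and red points KO libraries, the marker shape gives the replicate number and black bars are group means. Kdr lies at 34.4 to 39.9 CPM in WT and 124 to 128 CPM in KO, Flt1 at 10.7 to 12.02 and 3.51 to 4.06 CPM, and the points of Flt4, Nrp1, Vegfb and Pgf overlap between the groups.

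Flt4, the third receptor, was near the limit of detection. It had 15, 11 and 10 counts in WT and 11, 6 and 33 counts in KO. The groups overlapped, and KO replicate 3 held most of the KO counts. Its log2 fold change of 0.31 (SE 0.44) became -0.33 without KO replicate 3, so no direction can be given.

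Both receptor genes with a difference lie on chromosome 5 of the mouse, on the minus strand. In the GENCODE M21 annotation of build GRCm38, the build named in the submitters' processing notes, Kdr spans chr5:75932827-75978458 and Flt1 spans chr5:147561604-147726011. The 250 bases upstream of their RefSeq start sites (build GRCm38.p6) are shown because these 2 genes differed most, in opposite directions. They are written 5′ to 3′ on the minus strand. Capitals mark matches to ACGTG or GCGTG (the core bound by hypoxia-inducible factors, HIF), TGACGTCA (the cAMP response element) and TATAAA (the core of the TATA box), each searched on both strands. Positions count upstream from the start site to the first base of the match.
Kdr, chr5:75978456-75978705: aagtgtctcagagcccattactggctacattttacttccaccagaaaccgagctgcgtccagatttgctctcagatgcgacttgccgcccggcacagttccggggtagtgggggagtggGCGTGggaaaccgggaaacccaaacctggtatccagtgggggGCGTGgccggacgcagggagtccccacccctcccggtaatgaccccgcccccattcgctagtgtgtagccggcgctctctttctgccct
Flt1, chr5:147726012-147726261: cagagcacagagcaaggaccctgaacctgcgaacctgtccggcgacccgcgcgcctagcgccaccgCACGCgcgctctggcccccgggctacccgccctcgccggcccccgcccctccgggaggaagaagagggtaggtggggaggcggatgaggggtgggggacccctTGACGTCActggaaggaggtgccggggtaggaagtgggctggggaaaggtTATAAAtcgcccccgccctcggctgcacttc

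The 2 upstream windows differ in these letters. The Flt1 window has a cAMP response element at 81 bases and a TATA box core at 31 bases before the start, and the Kdr window has neither. The element occurs in 1.55% and the TATA core in 12.4% of the 32851 RefSeq windows of the same length. The Kdr window has HIF cores at 131 and 89 bases, and the Flt1 window has 1 at 184 bases. Of all windows, 38.6% hold a HIF core. Both have 4 matches to GGAA, the core bound by ETS factors of endothelial genes, which 93.4% of windows hold. Neither has a match to TGAGTCA (the AP-1 site) or to TGTTTAC or TGTTTGC (forkhead cores). None of the other 7 members has a cAMP response element or a TATA core in a window. A match is a description of letters and not evidence of binding.

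Nrp2 was higher in KO in every library, and Nrp1 overlapped between the groups. Nrp1, a co-receptor of Kdr and of semaphorin 3A, had 62.4, 50.7 and 59.3 CPM in WT and 63.8, 60.9 and 64.2 CPM in KO. The ranges overlapped, and WT replicate 2 was the lowest library. Its log2 fold change was 0.12 (SE 0.073), and 0.048 without that library. Nrp2, which pairs with Flt4 and binds semaphorin 3F, had 29.2, 24.9 and 31.03 CPM in WT and 38.98, 41.8 and 35.9 CPM in KO. Each KO library lay above each WT library. The log2 fold change of Nrp2 was 0.44 (SE 0.090), and 0.37 without WT replicate 2.

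Among the ligands, Vegfa and Vegfc were higher in KO. Vegfa, the main angiogenic ligand, had 14.4, 11.2 and 14.001 CPM in WT and 22.8, 20.3 and 22.02 CPM in KO. The groups did not overlap, and the mean was 13.2 ± 1.75 CPM in WT and 21.7 ± 1.29 CPM in KO (SD, n = 3 each). The log2 fold change was 0.70 (SE 0.10), and 0.61 without WT replicate 2. Vegfc, the lymphangiogenic ligand of Flt4, had 5.80, 6.53 and 5.95 CPM in WT and 7.87, 9.03 and 8.14 CPM in KO. Again every KO library lay above every WT library. Its log2 fold change was 0.46 (SE 0.13). It did not pass the threshold without WT replicate 1 (0.43) or without KO replicate 2 (0.41).

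Vegfb and placental growth factor (Pgf), ligands of Flt1 and not of Kdr, overlapped between the groups. Vegfb had 29.7, 35.5 and 34.5 CPM in WT and 35.9, 37.7 and 33.9 CPM in KO, a log2 fold change of 0.11 (SE 0.083). Pgf had only 40, 9 and 24 counts in WT and 15, 24 and 42 in KO. Its log2 fold change of 0.055 (SE 0.32) was -0.14 without WT replicate 2 and -0.11 without KO replicate 3. At these counts a modest difference of Pgf or Flt4 was not detectable. Vegfd, a ligand of Flt4 outside the set, had 40, 12 and 23 counts in WT and 36, 30 and 45 in KO. Its log2 fold change was 0.50 and did not pass edgeR's quasi-likelihood test (SE 0.27, adjusted p 0.200).

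All 9 members passed the filter on low counts. Of them, 4 (Kdr, Nrp2, Vegfa and Vegfc) were called higher and 1 (Flt1) lower at an adjusted p under 0.05 in edgeR. The same fit called 26.9% of the 14243 tested genes, 12.7% higher and 14.2% lower. The libraries of the 2 groups did not overlap for 5 of the 9 members and for 43.3% of all tested genes. The set was selected on this contrast, so nothing is read from these counts. The median log2 fold change was 0.31 over the members and 0.0029 over all tested genes. The member median is the value of Flt4 (SE 0.44), a gene near the limit of detection with no clear direction. Nothing is read from it either.

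**Figure D2:**
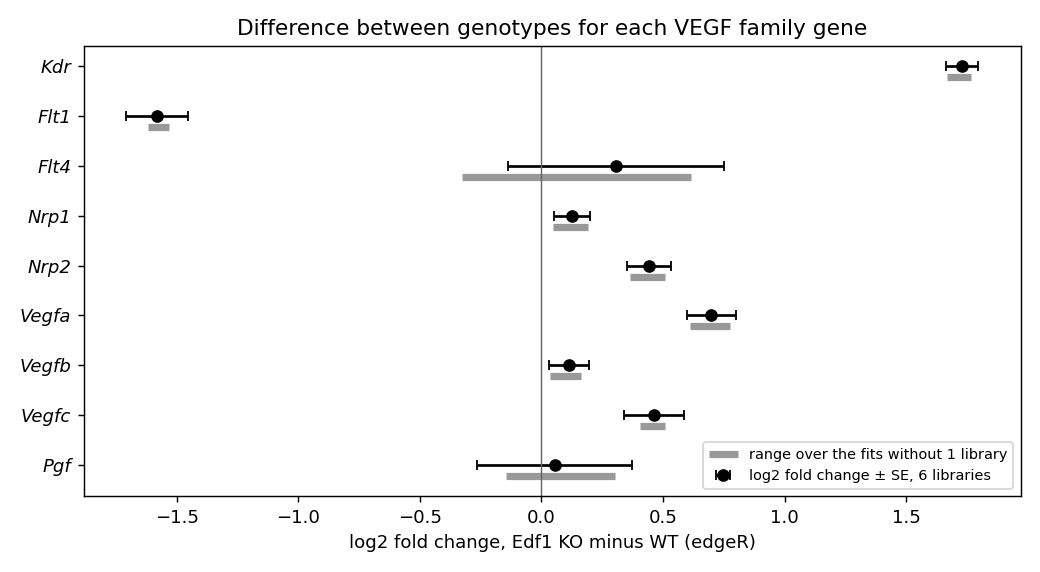
Log2 fold change of each VEGF family gene, KO minus WT, from edgeR (points, with SE bars, 6 libraries) and its range over the 6 fits that each left out 1 library (grey bars). Kdr at 1.73 and Flt1 at -1.58 stand apart on opposite sides, and the grey bars of Flt4 and Pgf cross 0.

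Levels of different genes were compared per kilobase of annotated exon. In WT, Vegfb was the most abundant member at 20.7 ± 1.94 CPM per kilobase, followed by Nrp1 (5.87 ± 0.62) and Kdr (4.22 ± 0.35). Vegfa (3.08 ± 0.41), Vegfc (2.49 ± 0.16) and Nrp2 (2.40 ± 0.26) came next (SD, n = 3 each). The ranges over the libraries overlapped for Vegfa and Vegfc and for Vegfc and Nrp2. Flt1 (0.84 ± 0.048), Pgf (0.40 ± 0.14) and Flt4 (0.079 ± 0.021) closed the order without overlap.

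In KO the order changed at 2 places. Kdr stood at 14.1 ± 0.24 CPM per kilobase, above Nrp1 at 6.44 ± 0.18, and Flt1 at 0.28 ± 0.021 stood below Pgf at 0.43 ± 0.10 (SD, n = 3 each). Per kilobase of annotated exon, the ranges of both pairs were separate in KO. Only Vegfc and Nrp2 overlapped as neighbours there. With the longest coding transcript as the length, Kdr was again below Nrp1 in WT (6.43 and 15.98 CPM per kilobase) and above it in KO (21.4 and 17.5). With that length the KO ranges of Flt1 (0.51 to 0.59) and Pgf (0.44 to 0.71) overlapped, and their means were 0.55 and 0.60. The separation of Flt1 and Pgf in KO therefore rests on the length used. The longest coding transcript also moved Nrp2 above Vegfa and Vegfc in WT, so the order of these 3 rests on the length as well.

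**Figure D3:**
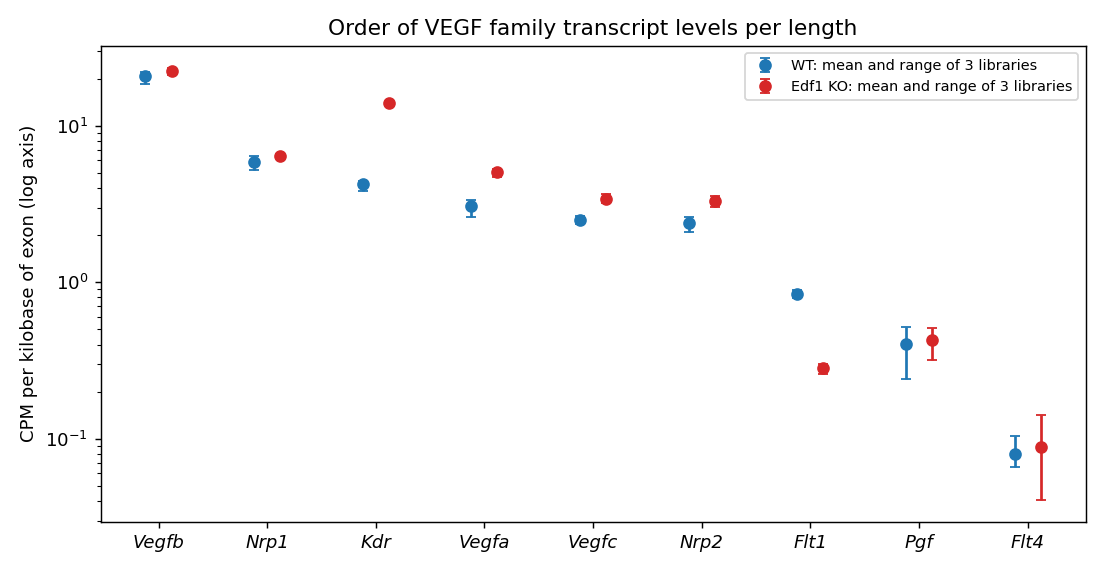
CPM per kilobase of annotated exon (log axis) of the 9 genes, in the order of their WT means. Points are means and bars the range of the 3 libraries, blue for WT and red for KO. Kdr moves from 4.22 to 14.1 and Flt1 from 0.84 to 0.28, and Vegfb is highest in both groups.

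Little of the members' sequence is shared with other genes. None of the 31-base words of the longest Kdr, Flt1, Vegfb, Vegfc or Pgf transcript occurs in a transcript of another gene. The highest share among the members was 0.80%, for Flt4. The exons of Nrp1 overlap those of a microRNA gene, Mir1903, over 80 bases, and no other member shares an exon with another annotated gene.

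Neighbouring genes were examined by position, 2 tested genes on each side of each member. Of these 36 genes, 4 were called higher and 3 lower in edgeR, 19.4% against 26.9% of all tested genes. Kit, the stem cell factor receptor gene 276 kilobases from Kdr, rose from 7.89 ± 1.21 to 13.9 ± 1.37 CPM (log2 fold change 0.79, adjusted p 0.00056 in edgeR). Pdgfra, on the far side of Kit, had 12.1 ± 0.70 CPM in WT and 11.5 ± 1.23 CPM in KO (adjusted p 0.584 in edgeR). On the other side of Kdr, Srd5a3 and Tmem165 had log2 fold changes of 0.0041 and -0.059, and neither passed. Pan3, 13.1 kilobases from Flt1, had 36.5 ± 6.16 CPM in WT and 35.8 ± 2.02 CPM in KO (SD, n = 3; adjusted p 0.822 in edgeR). Gsx1, beyond Pan3, had a log2 fold change of 0.44 (SE 0.44) and did not pass. On the other side of Flt1, Pomp had a log2 fold change of -0.12 and did not pass. Slc46a3, 152 kilobases from Flt1, fell from 14.1 ± 1.37 to 11.2 ± 0.70 CPM (log2 fold change -0.32, adjusted p 0.0376 in edgeR).

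Genes that carry the signal of VEGF receptors were called in both directions. In a list of 53 such genes, 51 were tested, 8 were called higher and 4 lower in edgeR, and the median log2 fold change was 0.011. Without KO replicate 3 the number called fell from 12 to 7. The 12 are 23.5% of the list, which is near the 26.9% of all tested genes and is no result about the list. Hspb1, a small heat shock protein phosphorylated downstream of Kdr, rose from 9.66 ± 0.34 to 16.1 ± 1.08 CPM (log2 fold change 0.73, adjusted p 0.00013 in edgeR). Dab2, an endocytic adaptor, had a log2 fold change of 0.38 and the adaptor Shc1 one of 0.35. Ptpn6, a phosphatase of blood cells, fell from 56.8 ± 2.19 to 38.3 ± 1.26 CPM (log2 fold change -0.57, adjusted p 2.6e-05 in edgeR). Plcg1, the phospholipase that binds activated Kdr, had a log2 fold change of 0.22 (adjusted p 0.0129 in edgeR) but did not pass without WT replicate 1 (0.21) or KO replicate 2 (0.20). Nos3, the endothelial nitric oxide synthase, had 10.04 ± 1.74 CPM in WT and 9.01 ± 0.52 CPM in KO (adjusted p 0.355 in edgeR).

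Genes that release, process or hold VEGFs outside the cell were mostly higher where they passed the test. Of 25 tested genes, 14 were called higher and 1 lower in edgeR (60.0% of the list), with a median log2 fold change of 0.35. Over all tested genes 26.9% were called and 12.7% were called higher. Mmp2, a matrix protease, rose from 11.6 ± 1.56 to 25.3 ± 2.05 CPM (log2 fold change 1.13, adjusted p 7.5e-06 in edgeR). Hspg2, the basement membrane proteoglycan perlecan, rose from 55.4 ± 7.89 to 110.9 ± 3.82 CPM (adjusted p 3.7e-06 in edgeR). Decorin (Dcn), a small matrix proteoglycan, had a log2 fold change of 1.25. Ccbe1, needed to activate Vegfc, had one of 0.60 (adjusted p 0.0370 in edgeR). The proteases Adamts3 and Adamts14 of the same list had log2 fold changes of -0.10 and -0.23 and did not pass (adjusted p 0.776 and 0.626 in edgeR). The single lower gene was Ang, encoding the ribonuclease angiogenin, at -0.54. Markers of meningeal fibroblasts, which make several of these matrix proteins, also had higher sums, at 387 to 425 CPM in WT and 549 to 563 CPM in KO. Of 12 tested genes, 6 were called higher and 6 did not pass. Most of the sums came from 1 gene, Ogn, with 256 ± 11.5 CPM in WT and 343 ± 26.0 CPM in KO. Dcn is on both lists. The part of these cells in the matrix values was not tested.

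The partners of neuropilins were higher or did not pass. Of 18 tested genes among class 3 semaphorins, plexins and their adhesion partners, 8 were called higher in edgeR (44.4%, against 12.7% of all tested genes) and the other 10 did not pass, with a median of 0.21. Without KO replicate 2 the number called was 5. Sema3c rose from 79.5 ± 5.57 to 116.6 ± 0.51 CPM and Sema3e from 19.1 ± 0.56 to 27.97 ± 1.96 CPM, with a log2 fold change of 0.55 each (adjusted p at most 0.00028 in edgeR). Plxna1, a signalling partner of Nrp1, rose from 75.8 ± 8.65 to 104.5 ± 5.43 CPM (log2 fold change 0.46, adjusted p 0.00095 in edgeR). Plxnd1, the receptor of Sema3e, had a log2 fold change of 0.31 but did not pass without WT replicate 1 (0.27) or KO replicate 2 (0.24). Sema3a had 1.30 ± 0.54 CPM in WT and 1.61 ± 0.15 CPM in KO, and Sema3f had 13.97 ± 1.26 and 14.9 ± 2.86 CPM. Neither passed.

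The platelet-derived growth factors and the class III receptor kinases are the nearest relatives of VEGFs and their receptors. In this list 7 of 12 tested genes were called higher and 1 lower in edgeR (66.7%, against 26.9% of all tested genes), with a median of 0.44. Besides Kit, the higher genes included its ligand Kitl (log2 fold change 0.54), Flt3l (0.87) and Pdgfrb, which rose from 34.8 ± 0.36 to 46.8 ± 1.79 CPM. Csf1r, the receptor that maintains microglia, was the lower gene and went from 295 ± 13.6 to 174 ± 3.74 CPM (log2 fold change -0.76, adjusted p 7.1e-07 in edgeR). Among 7 angiopoietins and Tie receptors, 3 were tested, 1 was called higher and 2 did not pass in edgeR. That is 33.3%, against 26.9% of all tested genes, and is no result about the list. The called gene, Angpt1, rose from 58.7 ± 5.36 to 83.3 ± 3.05 CPM, and the receptors Tek and Tie1 had too few counts to be tested.

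Genes of the hypoxia response, which includes Vegfa as a classic target, were called in both directions. Of 34 tested genes, 4 were called higher and 6 lower in edgeR, and the median was 0.011. The 29.4% called is near the 26.9% of all tested genes and is no result about the list. Without KO replicate 2 only 6 were called. Epas1, encoding HIF-2 alpha, rose from 48.2 ± 4.10 to 69.995 ± 2.85 CPM (log2 fold change 0.53, adjusted p 0.00010 in edgeR). Hif1a had 137.7 ± 5.49 CPM in WT and 146 ± 2.60 CPM in KO (log2 fold change 0.087, adjusted p 0.237 in edgeR). Car9, a carbonic anhydrase used as a marker of hypoxia, fell from 12.3 ± 0.71 to 7.34 ± 0.32 CPM (log2 fold change -0.74). The 2 glucose transporters on the list went opposite ways. Slc2a1, the more abundant, fell from 279 ± 19.9 to 243 ± 2.59 CPM (log2 fold change -0.20, adjusted p 0.0183 in edgeR), and Slc2a3 rose from 18.5 ± 1.68 to 26.4 ± 2.73 CPM (0.51). The other higher genes were Ero1a (log2 fold change 0.40) and P4ha1 (0.23). The other lower genes were Fam162a (-0.30), the hexokinase gene Hk2 (-0.29), the histone demethylase gene Kdm3a (-0.20) and Ndrg1 (-0.16).

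Markers of endothelial cells, the usual site of Kdr and Flt1, differed widely in level. Of 26 endothelial markers, 9 had enough counts to be tested, and 1 was called higher and 1 lower in edgeR (22.2%, against 26.9% of all tested genes). Pecam1, a junction protein of all endothelium, had 3, 3 and 5 counts in WT and 2, 2 and 5 in KO. Cldn5, the tight junction protein of brain endothelium, was absent from the WT counts and had 1 count in a single KO library. Cdh5, the endothelial cadherin, had 2, 4 and 5 counts in WT and 8, 26 and 13 in KO, and was higher in KO in each library but too low to be tested. Tie1 had at most 3 and Sox17 no counts in any library. Other markers had clear counts. Vwf, the von Willebrand factor gene, had 132, 79 and 92 counts in WT and 52, 85 and 121 in KO, and in CPM every KO library lay below every WT library (5.36 ± 0.67 and 4.07 ± 0.79). Prox1, a factor of lymphatic endothelium, had 77, 28 and 69 counts in WT and 82, 88 and 108 in KO, and Apln had 90, 39 and 56 and then 58, 75 and 115. In CPM the KO libraries of both lay above the WT libraries. Egfl7 had 26 to 49 counts per library, and its groups overlapped. None of these 4 passed the test (adjusted p 0.147, 0.0507, 0.196 and 0.910 in edgeR, in that order). The higher marker was Eng (endoglin), from 1.74 ± 0.54 to 3.15 ± 0.14 CPM (0.84 on the log2 scale). It did not pass without WT replicate 3 (0.61) or without any 1 of the KO libraries (0.81 to 0.87). The lower marker was Plvap, from 12.3 ± 0.66 to 5.51 ± 0.39 CPM (log2 fold change -1.16, adjusted p 1.4e-05 in edgeR). Summed over the list, markers had 663 to 716 CPM in WT and 685 to 717 CPM in KO, most of it from Slco1a4, a transporter not limited to endothelium.

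Marker lists of other cells are given beside the members, to be read against the 26.9% of all tested genes called. The lists share some genes. From the platelet-derived growth factor list, Pdgfrb is also a mural marker and Csf1r also a microglia marker. Cspg4 is on both the mural and the oligodendrocyte lists. Flt1 is also known from monocytes and macrophages. The microglia and macrophage list was called lower in 18 of 20 tested genes in edgeR, with a median of -0.51, and its sum was 3559 to 3774 CPM in WT and 2544 to 2633 CPM in KO. None of its 20 genes was at 0 counts. Mural cell markers were called higher in 5 of 8 tested genes (3 without WT replicate 1, KO replicate 1 or KO replicate 2). Their sums were 843 to 884 CPM in WT and 994 to 1077 CPM in KO. Most of these sums came from Acta2 (475 ± 19.0 CPM in WT, 586 ± 21.9 CPM in KO) and Tagln (288 ± 10.0 and 331 ± 16.5 CPM). The pericyte markers Rgs5, Kcnj8, Abcc9, Vtn and Higd1b were too low to be tested. Astrocyte and radial glia markers were split, with 3 of 17 called higher and 3 lower (10 called in all without WT replicate 2). Their sums were 12322 to 12742 CPM in WT and 13122 to 13656 CPM in KO. The largest part came from Vim, with 6273 ± 334 CPM in WT and 6849 ± 142 CPM in KO, which did not pass (adjusted p 0.0723 in edgeR).

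Choroid plexus epithelial markers were also split, 3 higher and 2 lower of 10 tested, with sums of 175 to 212 CPM in WT and 206 to 232 CPM in KO. These sums overlapped between the groups. The channel gene Trpm3 had the largest rise of that list, from 5.97 ± 0.61 to 34.6 ± 2.97 CPM. The lower genes were Enpp2 (log2 fold change -0.63) and Calml4 (-0.61), and 5 tested genes did not pass. Of the pituitary markers 6 were tested, 4 called higher and 1 lower, with sums of 19.5 to 23.3 CPM in WT and 32.3 to 39.5 CPM in KO. Prl, the prolactin gene, had 198, 175 and 131 counts in the KO replicates and 0 in WT. Neuron markers were called lower in 3 of 10 (30.0%), with sums of 261 to 337 CPM in WT and 279 to 294 CPM in KO. Most of the neuron sums came from Map2 (260 ± 43.2 and 242 ± 8.63 CPM), which did not pass. Oligodendrocyte lineage markers were called higher in 2 of 10 and lower in 1 (30.0%), with sums of 455 to 494 and 427 to 445 CPM. Most of these sums came from the lower gene, Cnp, with 350 ± 20.7 CPM in WT and 295 ± 3.58 CPM in KO. The shares called of the neuron and oligodendrocyte lists are near the 26.9% of all tested genes and are no result about either list. The part of any of these cells in the Kdr, Flt1 or Vegfa values was not tested, and in bulk RNA fewer cells of a type and less RNA per cell cannot be told apart.

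**Figure D4:**
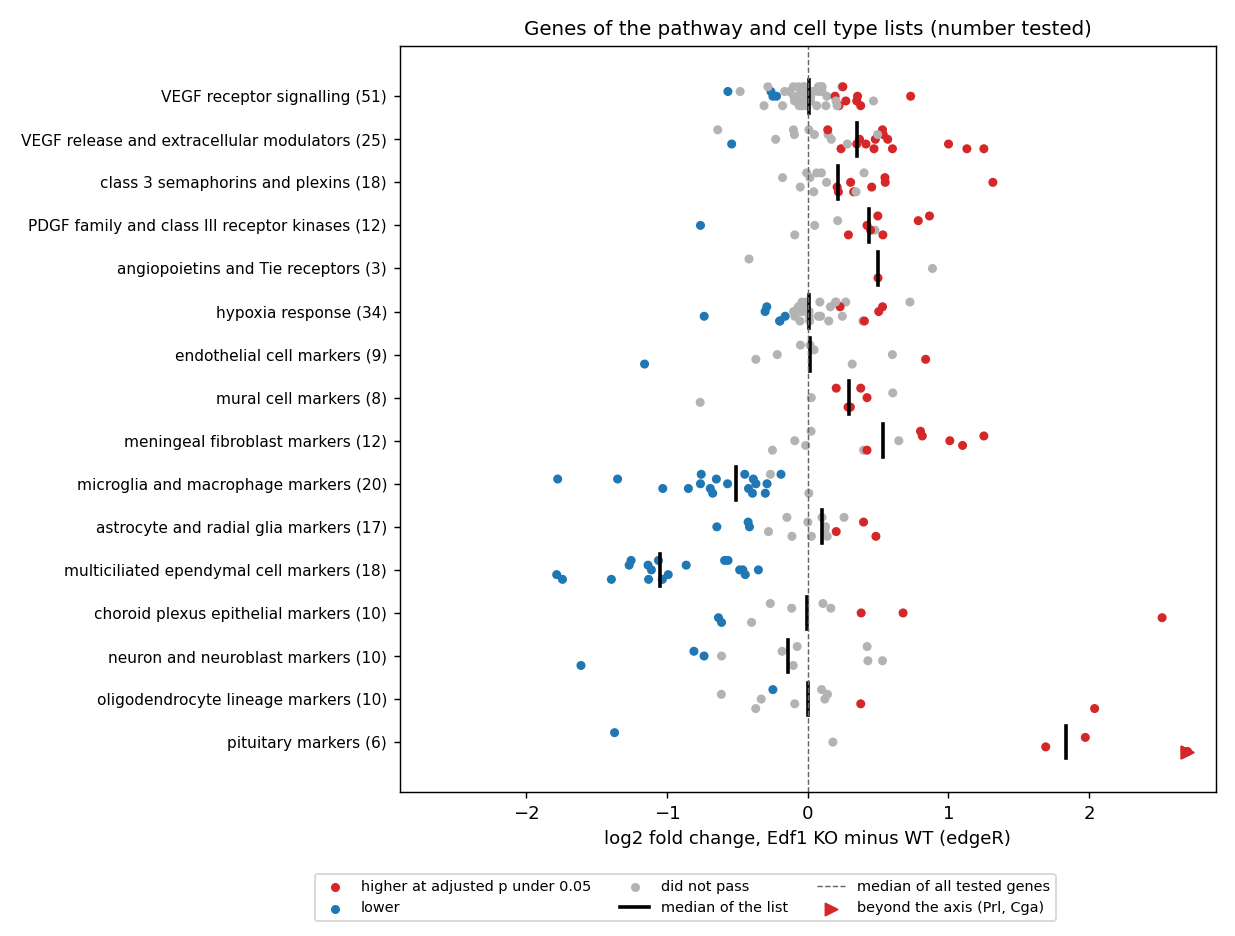
Log2 fold change, KO minus WT, of each tested gene of the pathway and cell type lists, with the number tested in brackets. Red points were called higher, blue points lower and grey points did not pass in edgeR at an adjusted p under 0.05, black bars are list medians, and the dashed line is the median of all tested genes. VEGF receptor signalling and the hypoxia response centre on 0.011, the microglia list on -0.51 and the extracellular modulators on 0.35, and Prl and Cga lie beyond the axis.

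The genes whose log2 CPM followed Kdr most closely over the 6 libraries were Shmt2, Usp15 and Otx2, each with a Pearson correlation of 0.999. They encode a mitochondrial enzyme of serine metabolism, a deubiquitinase and a homeobox factor of the forebrain and choroid plexus. P2ry12, Nfam1 and Dnah11 followed Flt1 most closely, again at 0.999 each. P2ry12 is a purine receptor of microglia, and Dnah11 an axonemal dynein of motile cilia. P2ry12 fell from 20.7 ± 0.62 to 8.14 ± 0.55 CPM and Dnah11 from 116.9 ± 7.49 to 34.97 ± 2.52 CPM (SD, n = 3 each). Among 13597 genes, 624 had a correlation above 0.95 with Kdr and 768 with Flt1. With 3 libraries in each group, a gene whose genotype difference is large beside its spread can score this highly. A high correlation alone therefore does not tie a gene to Kdr or Flt1.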

How the data were processed

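Per the labels' protocols, TRIzol served for RNA extraction and the MGIEasy mRNA kit for the libraries. The submitters' processing notes name FastQC 0.11.2, cutadapt 1.11, HISAT2 2.1.0 and build GRCm38. The program that made the deposited counts, its annotation, and its use of strand or multiply mapped reads are not given in the sources used here. The authors deposited whole-number counts for 22851 symbols, 1 column per library; 0 rows name no gene and 0 columns were left unused.

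The deposited counts were filtered with filterByExpr (14243 genes kept) and tested with edgeR 4.0.16 in R 4.3.3: TMM factors, the quasi-likelihood test of KO against WT, no covariate, Benjamini-Hochberg adjustment over all tested genes, threshold 0.05. Standard errors are the absolute log2 fold change over the root of the F statistic. Log2 CPM, used for correlations, had a prior count of 2. On simulated counts with known changes the test found most changed genes, but false calls exceeded the share that the threshold allows in most draws. The first draw missed the limit set for false calls, which was then loosened and more draws added. Replicates differed by more than sampling noise in every pair.

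The members and lists were chosen with earlier results of these data known. Genes named beyond the members were 16 set by name and, from each list, up to 3 called genes with the largest rise and 3 with the largest fall at a mean of at least 1 CPM, and the 3 genes most correlated with Kdr and with Flt1. Ccbe1, Adamts3, Adamts14, Ogn, Slco1a4, Vwf, Prox1, Apln, Egfl7, Tagln, Vim and Map2 were named after their values were seen. The same holds for the remaining called hypoxia genes, neighbours by position and markers too low to test. The motifs of the upstream windows were chosen after the data were seen. Exon lengths come from GENCODE M21. Alternatives were DESeq2 1.42.0 and its size factors, limma 3.58.1 (voom), no composition factor, all genes with 1 count, genes with a mean of at least 50 counts, a threshold of 0.01, a replicate block, each library left out and another gene length.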

Additional observations from a re-analysis of the deposited data

How the results depend on the processing

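Over the 13 alternative fits the log2 fold change ranged from 1.67 to 1.77 for Kdr and from -1.62 to -1.53 for Flt1, which were chosen on this contrast, so the ranges are no support for it. Members called higher numbered 3 to 4 and those called lower 1 to 1 across the fits without 1 library. Directions reversed for Flt4 without KO replicate 3 (range -0.33 to 0.61 over the fits without 1 library), for Pgf without WT replicate 2 or KO replicate 3 (-0.14 to 0.30), for Sema3f without KO replicate 2 (-0.055 to 0.19) and for Pdgfra without KO replicate 3 (-0.14 to 0.010). The cause was not tested. At an adjusted p under 0.01, 2213 genes were called in place of 3833, with 5 in VEGF receptor signalling, 4 among semaphorins and plexins, 1 endothelial and 2 mural markers. Without the filter 5 endothelial markers were called, and with a mean of at least 50 counts 3 pituitary markers, from more and fewer genes tested. Leaving out 1 library gave 2658 to 4340 genes (most without WT replicate 2), 7 (without KO replicate 3) to 16 in VEGF receptor signalling, 5 to 8 semaphorins and plexins, 1 to 2 angiopoietins and Tie receptors, 6 to 12 hypoxia genes, 1 to 2 endothelial, 3 to 5 mural and 6 to 10 astrocyte and radial glia markers. The replicate block gave 4065 genes. Deviations from the group means correlated by 0.069, 0.060 and 0.037 between same-numbered libraries, and no pairing was assumed. Low counts limit Flt4, Pgf and Vegfd.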
